A study of Mus musculus with 77 samples.

Results

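Treatment with semaglutide on a continued disease-inducing diet was compared with removal of that diet, after 24 weeks, in the liver transcriptome of mice with diet-induced obesity and metabolic dysfunction-associated steatohepatitis (DIO-MASH). The comparison holds 16 of the 77 liver libraries of the series, 8 from semaglutide mice and 8 from chow-reversal mice, taken by their treatment labels. All were male C57BL/6JRj mice that arrived at 5–6 weeks of age and ate the Gubra Amylin NASH diet (40% of energy from fat, with 22% fructose, 10% sucrose and 2% cholesterol) for 34 weeks. All were biopsied 4 weeks before treatment and housed singly from then on, and they entered the trial with a steatosis score of 3, or with a fibrosis score above 1 and a steatosis score above 2. Semaglutide mice stayed on the diet and received semaglutide, a long-acting agonist of the glucagon-like peptide 1 (GLP-1) receptor, under the skin once daily at 123 µg/kg, a dose reached on day 5. Chow-reversal mice were moved to chow and injected with vehicle at 5 ml/kg. Values are also given for 7 mice kept on the diet with vehicle for 24 weeks (vehicle) and for 7 vehicle-dosed mice that ate chow throughout (chow). The semaglutide and reversal mice differed in both drug and food. The vehicle mice shared the diet of the first group and the injections of the second. Comparisons of each with vehicle mice are given over all genes and for some genes and lists. A gene said to rise or fall did so in semaglutide against reversal livers, unless vehicle or chow is named.

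Liver cells sense cholesterol through SREBP2, a transcription factor held in the endoplasmic reticulum while sterols are plentiful. When sterols run low it moves to the nucleus and switches on the enzymes that make cholesterol. Oxysterols, which accumulate when cholesterol is plentiful, activate the nuclear receptor LXR, which turns on genes that export cholesterol into bile. In steatohepatitis the resident macrophages of the liver (Kupffer cells) are joined by macrophages derived from monocytes, and stellate cells turn into myofibroblasts that lay down collagen.

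Levels are given as CPM, the count of a gene scaled to a fixed library total after TMM factors, with 1 library per mouse, as lowest, median and highest of a group. Fold changes are log2 values of semaglutide over reversal with their standard error (SE), and calls are those of edgeR's quasi-likelihood test at an adjusted p under 0.05. Total counts per library were 8883190 to 17661160 (median 15249072.5) in semaglutide mice and 13181335 to 19739138 (median 14753556.5) in reversal mice. In bulk tissue, fewer cells of a type and less RNA per cell cannot be told apart.

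Single libraries stood apart in both groups. On the first principal component of the 1000 most variable genes, which carried 29.8% of the variance over all 77 libraries, semaglutide mice lay at -11.8 to 9.0 (median -4.2) and reversal mice at -13.8 to 33.7 (median 26.9), while vehicle mice lay at -40.1 to -29.4 and chow mice at 26.6 to 49.2. The reversal mouse at -13.8 was replicate 7, which lay below every semaglutide mouse on this component and above every vehicle mouse. It had 914 CPM of the acute phase gene Lcn2 and 132 CPM of the chemokine Cxcl14. Reversal replicate 2 had 17.4 CPM of the macrophage receptor Trem2 and lay at 17.7 on the second component (6.78% of the variance), above every other reversal mouse. Reversal replicate 8 carried RNA of adipocyte genes, with 19.4 CPM of Adipoq and 17.4 CPM of Lep, against 0 to 0.11 CPM of Adipoq in the other reversal mice. Semaglutide replicate 2 lay highest on the second component, at 34.3. Semaglutide replicate 8, one of the libraries numbered in a second series, had 4.57% of its counts in predicted genes, against 1.7 to 2.45% in the other semaglutide mice. Replicates 2 and 7 of the reversal group were left out of an additional fit, chosen after it was seen that removing them raised the number of calls most, so its larger counts follow in part from that choice and are given below only beside the full ones.

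**Figure D1:**
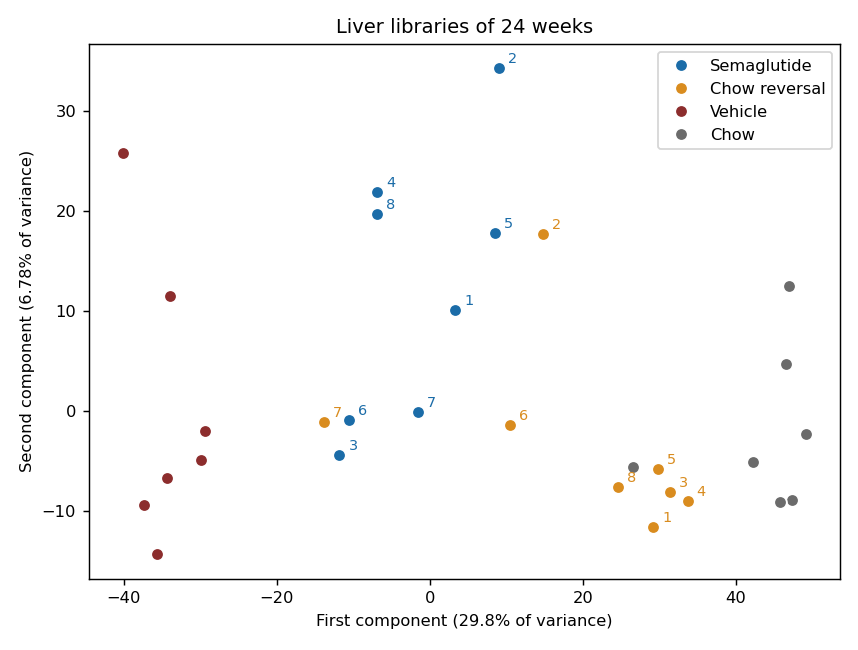
Position of the 30 liver libraries of 24 weeks on the first and second principal components of log2 CPM, each point 1 mouse, with the replicate number beside semaglutide and reversal mice. Semaglutide mice lie between vehicle and chow mice on the first component, 5 reversal mice lie between 24.6 and 33.7, and reversal replicate 7 lies at -13.8.

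Across the 14904 genes tested, 1158 were higher (7.77%) and 1299 were lower (8.72%) in semaglutide than in reversal livers, and 4835 had an unadjusted p under 0.05. In 47 of the higher genes (0.315% of all tested) every semaglutide mouse lay above every reversal mouse, and in 54 of the lower genes (0.362%) every semaglutide mouse lay below. After leaving out any 1 of the 16 libraries, 624 of the higher and 504 of the lower genes stayed past the threshold each time, and the number lower was 816 without semaglutide replicate 4 and 853 without reversal replicate 8. Without reversal replicates 2 and 7 the test called 1987 genes higher and 2145 lower. With only the 16 compared libraries in the fit, which takes the spread from those mice alone, it called 307 higher and 208 lower of 13101. The main fit takes the spread from all 10 groups, and whether that understates the spread of the compared mice was not tested. Of the calls 47.1% were higher, against 76.3% (1628 higher and 506 lower) when libraries were scaled to their totals, which moved the median of all genes by 0.07 on the log2 scale. Set against vehicle, semaglutide livers had 1604 genes higher (10.8%) and 2021 lower (13.6%), and reversal livers had 2530 higher (17%) and 2849 lower (19.1%), together 36.1% of the genes tested. Set against chow, semaglutide livers had 2665 higher (17.9%) and 2014 lower (13.5%), together 31.4%, and reversal livers had 852 higher (5.72%) and 136 lower (0.913%), together 6.63%. These comparisons share the semaglutide, reversal, vehicle and chow mice among them.

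Genes of cholesterol synthesis were lower with semaglutide than after reversal almost throughout. Of 25 genes of cholesterol synthesis and uptake, 24 were lower and 0 were higher, with a median log2 fold change of -1.69 against 0.00 over all genes tested, and in 20 of them every semaglutide mouse lay below every reversal mouse. The exception was Insig1, a sterol-sensing anchor that holds SREBP2 back (-0.56 ± 0.25 SE, adjusted p = 0.11). Between reversal and chow livers 0 of the 25 passed in either direction (median -0.11). Between semaglutide and vehicle livers 9 of the 25 were higher and 0 lower (median 0.33), where 10.8% of all genes were higher and 13.6% lower. All 25 were lower in semaglutide than in chow livers (median -1.90), and all 25 were higher in reversal than in vehicle livers (median 2.16).

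Sqle, squalene epoxidase, which performs the first oxygen-requiring step of sterol synthesis, had 0.458, 0.757 and 4.95 CPM (lowest, median, highest) in semaglutide mice, against 65.9, 99.5 and 176 CPM in reversal mice, 1.34, 1.96 and 2.44 CPM in vehicle mice and 99.6, 103 and 225 CPM in chow mice. Every semaglutide and vehicle mouse lay far below every reversal and chow mouse. The log2 fold change was -6.43 ± 0.40 SE (edgeR adjusted p = 2.1e-21) between semaglutide and reversal, and -0.52 between semaglutide and vehicle (adjusted p = 0.38). Idi1, which interconverts the isoprenoid building blocks, had 11.1, 19.8 and 45.2 CPM in semaglutide mice and 212, 299 and 914 CPM in reversal mice (-4.12 ± 0.27 SE, adjusted p = 2.8e-20). Cyp51, the lanosterol demethylase, had 25.1, 27.9 and 55.4 CPM in semaglutide mice and 196.5, 231 and 435 CPM in reversal mice (-3.01 ± 0.20 SE, adjusted p = 2.1e-20). Msmo1, a later demethylating enzyme of the same branch, had 19.8, 38.1 and 62.6 CPM in semaglutide mice and 195, 288 and 353.5 CPM in reversal mice (-2.79 ± 0.18 SE, adjusted p = 2.6e-20). The groups did not overlap in any of these genes.

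Hmgcs1 and Srebf2 were lower with semaglutide too. Hmgcs1, which makes HMG-CoA, had 54.5, 92.2 and 124 CPM in semaglutide mice and 448, 555 and 732 CPM in reversal mice (-2.67 ± 0.18 SE, adjusted p = 1.5e-19). Srebf2, which encodes SREBP2 itself, had 24.0, 35.3 and 42.9 CPM in semaglutide mice and 53.1, 66.4 and 76.5 CPM in reversal mice (-0.94 ± 0.11 SE, adjusted p = 3e-10). No semaglutide mouse reached the lowest reversal mouse in either gene. Stard4, a carrier of cholesterol between membranes, fell by 1.08 on the log2 scale (± 0.19 SE, adjusted p = 4.6e-05).

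The promoters of Hmgcs1, Idi1 and Msmo1 are shown because these genes moved together and without overlap. The sequences are from RefSeq (GRCm38.p6), from 250 bases before to 50 bases after the annotated start, written 5′ to 3′ on the gene's strand. Capitals mark matches on either strand to CCAAT, the box bound by NF-Y (ATTGG on the other strand), and to TCACNCCAC, a form of the sterol regulatory element. The windows are chr13:119690101-119690400 (plus strand) for Hmgcs1, chr13:8885356-8885655 (plus strand) for Idi1 and chr8:64733529-64733828 (minus strand) for Msmo1.
Hmgcs1: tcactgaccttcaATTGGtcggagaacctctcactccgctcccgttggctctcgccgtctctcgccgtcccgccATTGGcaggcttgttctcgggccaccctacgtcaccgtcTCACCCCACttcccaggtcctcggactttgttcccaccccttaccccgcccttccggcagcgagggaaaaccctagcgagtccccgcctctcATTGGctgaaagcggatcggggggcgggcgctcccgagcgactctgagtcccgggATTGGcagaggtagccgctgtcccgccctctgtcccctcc
Idi1: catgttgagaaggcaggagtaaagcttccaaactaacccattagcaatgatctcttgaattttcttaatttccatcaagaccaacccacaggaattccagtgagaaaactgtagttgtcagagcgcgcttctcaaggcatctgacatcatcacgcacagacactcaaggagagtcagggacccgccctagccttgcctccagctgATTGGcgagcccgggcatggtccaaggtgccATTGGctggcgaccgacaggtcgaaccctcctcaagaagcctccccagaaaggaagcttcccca
Msmo1: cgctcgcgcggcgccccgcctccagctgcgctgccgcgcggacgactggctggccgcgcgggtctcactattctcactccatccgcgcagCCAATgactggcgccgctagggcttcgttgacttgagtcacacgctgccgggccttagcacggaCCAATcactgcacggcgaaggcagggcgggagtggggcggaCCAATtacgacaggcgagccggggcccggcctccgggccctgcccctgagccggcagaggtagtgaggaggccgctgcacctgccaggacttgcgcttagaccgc
Hmgcs1 holds 4 matches to CCAAT and 1 to TCACNCCAC, Idi1 holds 2 to CCAAT and Msmo1 holds 3 to CCAAT. Of the 25 list members, 20 were matched to the promoter table. CCAAT was in 16 of these 20 windows (80%), against 37.4% of 32851 promoters of the same length, and TCACNCCAC was in 1 of 20 (5%), against 1.24%. A match describes letters and does not show that a factor binds there.

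**Figure D2:**
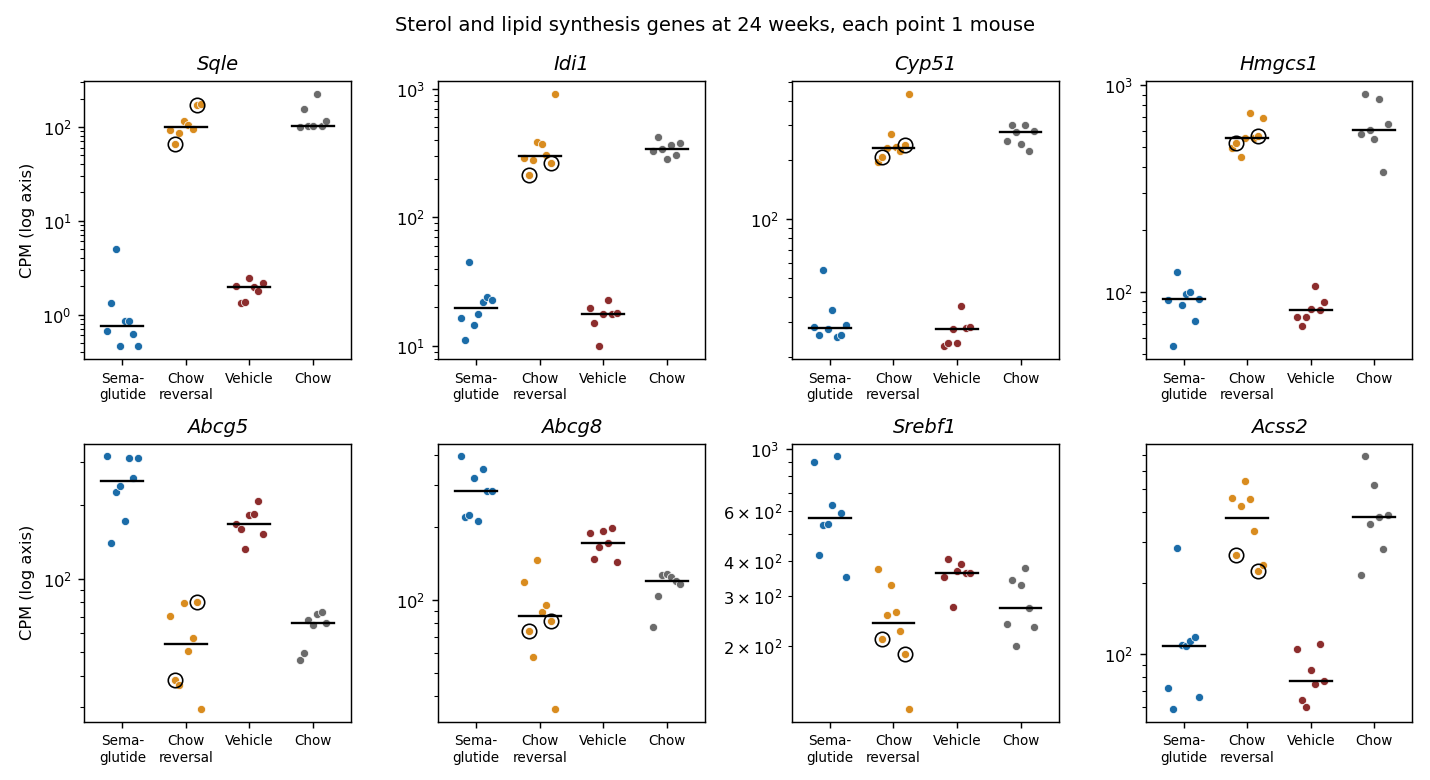
Levels of 8 sterol and lipid synthesis genes at 24 weeks in CPM on a log axis, each point 1 mouse, with semaglutide, reversal, vehicle and chow mice side by side, a black line at each group's median and black rings round reversal replicates 2 and 7. Sqle, Idi1, Cyp51 and Hmgcs1 are lower in every semaglutide mouse than in every reversal mouse (Sqle medians 0.757 and 99.5 CPM), and Abcg5 and Abcg8 are higher in every semaglutide mouse (Abcg5 medians 249.9 and 54 CPM).

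Of 15 genes of cholesterol export and LXR targets 6 were higher (Abcg1, Abcg5, Abcg8, Mylip, Nr1h3 and Soat1), 1, Pltp, was lower and 8 did not pass. With the 16 compared libraries alone 4 were higher and 0 lower. Abcg5, which with Abcg8 forms the transporter that secretes sterols into bile, had 140, 249.9 and 317 CPM in semaglutide mice, against 29.3, 54 and 80.6 CPM in reversal mice, 133, 168 and 208 CPM in vehicle mice and 46.6, 66.2 and 72.8 CPM in chow mice. No semaglutide mouse overlapped with a reversal mouse, and the log2 fold change was 2.16 ± 0.18 SE (edgeR adjusted p = 8.5e-16). Abcg8 had 213, 282 and 393 CPM in semaglutide mice and 35.3, 85.4 and 146 CPM in reversal mice, again without overlap (1.71 ± 0.19 SE, adjusted p = 1.1e-10). Both were also above their level in vehicle mice, by 0.54 for Abcg5 (adjusted p = 0.018) and 0.73 for Abcg8 (adjusted p = 0.0032) on the log2 scale. Abcg1, which passes cholesterol from cells to lipoproteins, had 10.0, 13.7 and 18.5 CPM in semaglutide mice and 3.38, 4.92 and 10.7 CPM in reversal mice, with 7 of 8 semaglutide mice above all reversal mice (1.3 ± 0.18 SE, adjusted p = 2.8e-07). Soat1, which esterifies cholesterol for storage, rose by 0.79 ± 0.20 SE (adjusted p = 0.0037), and Mylip, a ubiquitin ligase, by 0.60 ± 0.16 SE (adjusted p = 0.0072). Pltp, the phospholipid transfer protein, had 62.8, 90.4 and 142 CPM in semaglutide mice and 107, 144.5 and 210 CPM in reversal mice (-0.64 ± 0.20 SE, adjusted p = 0.023).

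Genes of fatty acid synthesis and sugar use were higher in part. In fatty acid and triglyceride synthesis 5 of 23 were higher (Scd1, Fads2, Srebf1, Dgat2 and Pnpla3) and 1, Acss2, was lower. With the 16 compared libraries alone 2 of these genes were higher and 1 lower. Srebf1, which encodes the SREBP1 regulators of fatty acid synthesis, had 350, 567.5 and 941 CPM in semaglutide mice, against 119, 241.5 and 374.5 CPM in reversal mice, and 7 of 8 semaglutide mice lay above all reversal mice (1.32 ± 0.21 SE, adjusted p = 5e-06). Scd1, the desaturase that makes oleic acid, had 11480, 17030 and 26000 CPM in semaglutide mice and 7073, 9875 and 11570 CPM in reversal mice (0.89 ± 0.19 SE, adjusted p = 0.00048). Fasn, fatty acid synthase, had 265, 1166 and 2119 CPM in semaglutide mice and 572, 1077 and 1396 CPM in reversal mice, and did not pass (0.15 ± 0.38 SE, adjusted p = 0.81). Acss2, which makes acetyl-CoA from acetate, had 58.7, 109 and 282.5 CPM in semaglutide mice and 225, 378.5 and 542 CPM in reversal mice (-1.66 ± 0.27 SE, adjusted p = 9.5e-06).

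In fructose use, glycolysis and the pentose phosphate pathway 6 of 17 genes were higher and 0 lower. In the fit of the 16 compared libraries alone 3 were higher and 0 lower. Khk, the kinase that starts fructose metabolism, had 734.5, 811 and 1360 CPM in semaglutide mice and 293, 510 and 814.5 CPM in reversal mice (0.90 ± 0.17 SE, adjusted p = 0.0001), and Gpi1, an isomerase of glycolysis, rose by 0.92 ± 0.15 SE (adjusted p = 5.4e-06). Gckr and Eno1 also rose. Slc2a4, the insulin-responsive glucose transporter GLUT4 of muscle and fat, was at a low level in all livers but had 4.37, 9.44 and 22.7 CPM in semaglutide mice, against 0.301, 1.03 and 2.20 CPM in reversal mice, 4.19, 7.26 and 10.9 CPM in vehicle mice and 0, 0.414 and 0.746 CPM in chow mice. The semaglutide and reversal mice did not overlap (3.29 ± 0.37 SE, adjusted p = 2.9e-10).

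Apolipoproteins and lipoprotein assembly had 5 of 17 genes higher and 1 lower, against 1 higher and 0 lower with the 16 compared libraries alone. Apoc2, the activator of lipoprotein lipase, had 294, 465.7 and 648 CPM in semaglutide mice and 65.8, 123.5 and 331 CPM in reversal mice, with 7 of 8 semaglutide mice above all reversal mice (1.66 ± 0.25 SE, adjusted p = 1e-06). Tm6sf2, which loads lipid onto very low-density lipoprotein, rose by 0.43 ± 0.12 SE (adjusted p = 0.0075), and Apoa4 by 1.09 ± 0.33 SE (adjusted p = 0.017). Mttp, which lipidates apolipoprotein B, fell by 0.45 (± 0.15 SE, adjusted p = 0.031). Few genes of lipid burning and storage passed. In fatty acid oxidation and PPAR-alpha targets 1 of 29 was higher (Acot2) and 1 lower, and Cpt1a, the gatekeeper of mitochondrial oxidation, had a log2 fold change of -0.08 ± 0.17 SE (adjusted p = 0.79). Among 16 lipid droplet proteins and lipases 2 were higher, Plin3 and Plin5, and 1 lower. Over all genes 7.77% were higher and 8.72% lower. Plin3, a coat protein of droplets, rose by 0.53 ± 0.10 SE (adjusted p = 0.00013). Cidea, which fuses droplets, had 2.35, 3.50 and 9.78 CPM in semaglutide mice, against 0.412, 11.9 and 38.6 CPM in reversal mice and 0, 0.673 and 1.32 CPM in chow mice (-1.73 ± 0.43 SE, adjusted p = 0.0039), and 7 reversal mice had 7.46 CPM or more.

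Bile acid genes, cytochromes and conjugation enzymes were lower or did not pass, except that Cyp2b9, Cyp2b13 and Gstm2 were higher. Of 23 genes of bile acid synthesis, transport and FXR signalling, 5 were lower and 0 higher. Cyp8b1, the 12-alpha-hydroxylase that sets the share of cholic acid, had 91.1, 207 and 311 CPM in semaglutide mice and 50.3, 502 and 657 CPM in reversal mice (-1.05 ± 0.31 SE, adjusted p = 0.015), while Cyp7a1, the rate-limiting enzyme of bile acid synthesis, had 31.01, 80.98 and 239 CPM in semaglutide mice and 31.6, 111 and 306 CPM in reversal mice and did not pass (-0.36 ± 0.46 SE, adjusted p = 0.61). Abcc3, which exports bile acids to blood, fell by 0.51 (± 0.15 SE, adjusted p = 0.012) and Baat, which conjugates them, by 0.33 (± 0.10 SE, adjusted p = 0.014). Slc10a1 and Abcb11, the uptake transporter and the export pump, were the other 2. The number lower was 8 without reversal replicates 2 and 7, 3 with scaling to library totals and 0 with the 16 compared libraries alone.

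Among 27 cytochrome P450 genes of families 1 to 3 and their receptors 8 were lower and 2 higher (over all genes 8.72% and 7.77%). Cyp2f2, a periportal enzyme, had 235, 435 and 734 CPM in semaglutide mice and 412.5, 1058 and 1356 CPM in reversal mice (-1.15 ± 0.22 SE, adjusted p = 0.00018), and the others lower were Cyp2c50, Cyp2c54, Cyp2c55, Cyp2d9, Cyp3a11, Cyp3a25 and Cyp3a59. With scaling to library totals 5 were lower and 3 higher, and with the 16 compared libraries alone 3 were lower and 2 higher. The 2 that rose, Cyp2b9 and Cyp2b13, are female-predominant in mouse liver. Cyp2b9 had 9.18, 94.0 and 231 CPM in semaglutide mice and 0.648, 6.48 and 10.9 CPM in reversal mice (4.29 ± 0.71 SE, adjusted p = 9.1e-06). Cyp2b13 had 0.437, 4.00 and 29.6 CPM in semaglutide mice and 0, 0.344 and 1.13 CPM in reversal mice (4.80 ± 0.79 SE, adjusted p = 7.7e-06). In both genes 7 of 8 semaglutide mice lay above all reversal mice, and the spread among semaglutide mice was wide. Reads of Cyp2b9, Cyp2b13 and Cyp2b10, like those of Cyp2a4 and Cyp2a5, can be split between near-identical genes, so single values are uncertain. Of 30 conjugation enzymes 8, all of the Ugt family, were lower and 1, Gstm2, was higher. Ugt2b1, a glucuronosyltransferase, had 124, 153.5 and 184 CPM in semaglutide mice and 56.3, 342 and 452 CPM in reversal mice (-1.05 ± 0.22 SE, adjusted p = 0.00062), where reversal replicate 7 was the lowest and the other reversal mice had 270.7 CPM or more. Ugt3a2 fell by 0.60 (± 0.15 SE, adjusted p = 0.0037), and Ugt2b38, also within a family of near copies, by 2.86 (± 0.77 SE, adjusted p = 0.0069). The number of conjugation enzymes lower was 13 with reversal replicates 2 and 7 left out, 5 with scaling to library totals and 2 with the 16 compared libraries alone.

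Resident macrophage and antigen presentation genes were higher with semaglutide than after reversal. Of 12 Kupffer cell genes 7 were higher and 0 lower (median log2 fold change 1.06), and of 10 MHC class II genes 8 were higher and 0 lower (median 0.94). Cd5l, a protein secreted by resident macrophages, had 182, 230.0 and 407 CPM in semaglutide mice, against 25.5, 54.1 and 194.5 CPM in reversal mice, 334, 402 and 600 CPM in vehicle mice and 28.97, 37.3 and 61.96 CPM in chow mice. Of the reversal mice only replicate 7 reached the range of the semaglutide mice (1.98 ± 0.25 SE, edgeR adjusted p = 1.4e-08). Folr2, a folate receptor of resident macrophages, had 12.96, 17.4 and 30.8 CPM in semaglutide mice and 3.25, 5.70 and 12.2 CPM in reversal mice, with no overlap (1.61 ± 0.25 SE, adjusted p = 2.2e-06). Clec4f, a lectin that marks Kupffer cells, had 119, 156.5 and 299 CPM in semaglutide mice and 32.5, 63.03 and 135 CPM in reversal mice (1.36 ± 0.26 SE, adjusted p = 0.00011), and Timd4, which marks long-lived Kupffer cells, had 2.71, 3.74 and 21.6 CPM in semaglutide mice and 0.314, 1.25 and 7.48 CPM in reversal mice (1.73 ± 0.54 SE, adjusted p = 0.021).

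Among MHC class II genes, H2-DMa, which loads peptides, had 7.57, 9.52 and 14.4 CPM in semaglutide mice, against 2.85, 3.71 and 8.55 CPM in reversal mice, 13.1, 18.1 and 34.8 CPM in vehicle mice and 1.43, 2.09 and 3.93 CPM in chow mice. The semaglutide median lay between those of vehicle and reversal livers, with 7 of 8 above all reversal mice (1.04 ± 0.20 SE, adjusted p = 0.0002). H2-DMb1, its partner, had 5.50, 11.1 and 15.9 CPM in semaglutide mice and 3.06, 4.06 and 9.19 CPM in reversal mice (1.12 ± 0.24 SE, adjusted p = 0.00052). Cd74, the invariant chain, rose by 0.93 ± 0.27 SE (adjusted p = 0.013), and Ciita, the master regulator of class II genes, by 0.94 ± 0.23 SE (adjusted p = 0.0033). Near-identical MHC genes can share reads, and single values are uncertain for that reason. With only the 16 compared libraries in the fit, 3 of the Kupffer cell genes and 3 of the class II genes passed. Against vehicle, semaglutide livers had 3 of the Kupffer cell genes lower and 1 higher, and reversal livers 6 lower and 1 higher. For the class II genes these counts were 7 lower and 0 higher, and 9 lower and 0 higher. Over all genes 13.6% were lower with semaglutide and 19.1% after reversal.

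Interferon-stimulated genes and genes of inflammation followed. Of 26 interferon-stimulated genes 14 were higher and 0 lower (median 0.59), and of 24 genes of inflammation signalling 8 were higher and 0 lower (median 0.61). Oas1a, an antiviral sensor of double-stranded RNA, had 5.37, 8.58 and 12.7 CPM in semaglutide mice and 1.14, 3.94 and 7.13 CPM in reversal mice (1.22 ± 0.24 SE, adjusted p = 0.0002). Bst2, which tethers budding viruses, had 164, 219 and 387 CPM in semaglutide mice and 92.4, 119 and 207 CPM in reversal mice, where replicate 2 was the highest (0.96 ± 0.18 SE, adjusted p = 8.1e-05). In both genes 5 of 8 semaglutide mice lay above all reversal mice. Gbp2, a guanylate-binding protein, rose by 1.23 ± 0.25 SE (adjusted p = 0.00031). Tlr7, which senses single-stranded RNA, had 1.66, 2.65 and 5.95 CPM in semaglutide mice and 0.381, 1.21 and 3.24 CPM in reversal mice (1.24 ± 0.29 SE, adjusted p = 0.0019), and Tlr2, which senses bacterial lipopeptides, had 4.64, 6.80 and 10.1 CPM in semaglutide mice and 2.60, 3.08 and 7.42 CPM in reversal mice (0.84 ± 0.19 SE, adjusted p = 0.0013). Tnf, a low-count gene, rose by 1.44 ± 0.39 SE (adjusted p = 0.0075). Of the 24 inflammation genes 16 were higher without reversal replicates 2 and 7, and 2 with the 16 compared libraries alone, where 8 of the interferon-stimulated genes were higher. Compared with vehicle, semaglutide livers had 15 of the inflammation genes lower and 1 higher, and reversal livers 18 lower and 0 higher. For the interferon-stimulated genes these counts were 11 lower and 0 higher, and 21 lower and 1 higher. Over all genes 13.6% and 19.1% were lower.

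Of 25 chemokines and receptors 9 were higher and 3 lower, against 4 higher and 0 lower with the 16 compared libraries alone. Relative to vehicle, 13 were lower and 0 higher with semaglutide, and 18 lower and 3 higher after reversal (13.6% and 19.1% of all genes were lower). Ccl6, made by macrophages, had 10.3, 17.7 and 37.7 CPM in semaglutide mice and 3.58, 5.70 and 13.96 CPM in reversal mice (1.49 ± 0.31 SE, adjusted p = 0.00046). Ccl5 and Cxcl9, which attract T cells, rose by 1.52 ± 0.40 SE (adjusted p = 0.0062) and by 1.17 ± 0.26 SE (adjusted p = 0.0011). Ccl2, the main attractant of monocytes, had 0.366, 1.99 and 4.48 CPM in semaglutide mice and 0.686, 1.07 and 3.12 CPM in reversal mice and did not pass (0.53 ± 0.33 SE, adjusted p = 0.25). Of the 3 that were lower, Cxcl14 rested on 1 mouse. It had 1.71, 2.62 and 5.62 CPM in semaglutide mice and 1.81, 2.33 and 132 CPM in reversal mice (-2.61 ± 0.51 SE, adjusted p = 0.00017), and without reversal replicate 7 its log2 fold change was 0.22. Cxcl1, an attractant of neutrophils, had 9.72, 16.5 and 52.4 CPM in semaglutide mice and 9.68, 36.3 and 117 CPM in reversal mice (-1.29 ± 0.37 SE, adjusted p = 0.012).

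Lipid-associated macrophage genes were mixed, with 6 of 18 higher and 2 lower. Relative to vehicle, 15 were lower and 0 higher with semaglutide, and 14 lower and 1 higher after reversal (13.6% and 19.1% of all genes were lower). Tyrobp, the signalling adaptor of Trem2, had 14.4, 23.01 and 66.3 CPM in semaglutide mice and 5.29, 8.16 and 28.5 CPM in reversal mice (1.39 ± 0.30 SE, adjusted p = 0.00074), and Ctsb, a lysosomal protease, rose by 0.51 ± 0.10 SE (adjusted p = 0.00016). Trem2 had 6.28, 11.3 and 17.6 CPM in semaglutide mice and 1.203, 2.30 and 17.4 CPM in reversal mice, with the groups overlapping through 3 reversal mice (1.15 ± 0.42 SE, adjusted p = 0.047), and 2.16 without reversal replicates 2 and 7 (adjusted p = 0.00026). Gpnmb, a glycoprotein of lipid-laden macrophages, had 8.43, 24.6 and 48.4 CPM in semaglutide mice, against 4.64, 7.39 and 71.5 CPM in reversal mice (0.31 ± 0.41 SE, adjusted p = 0.62), and 1.09 with those mice left out (adjusted p = 0.044). Spp1, osteopontin, had 42.03, 70.6 and 141 CPM in semaglutide mice and 34.9, 63.4 and 486 CPM in reversal mice (-0.62 ± 0.38 SE, adjusted p = 0.24). Fabp5 and Atp6v0d2 were the 2 that were lower. With the 16 compared libraries alone, 2 of the 18 genes were higher and 0 lower. Without reversal replicates 2 and 7, 11 of the 18 were higher and Fabp5 had a log2 fold change of -0.19 (adjusted p = 0.67).

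Several immune cell markers were higher in the same mice. Of 10 T and NK cell markers 5 were higher and 0 lower, with a summed level of 8.67 to 20.3 CPM in semaglutide mice, 4.56 to 11.8 CPM in reversal mice, 7.59 to 26.8 CPM in vehicle mice and 2.42 to 5.34 CPM in chow mice. Of 8 markers of monocytes and macrophages 4 were higher and 0 lower, with summed levels of 329 to 837.5 CPM in semaglutide mice and 130 to 696 CPM in reversal mice. The 4 were Lyz2, Adgre1, Csf1r and Cd68. Adgre1 and Csf1r were also counted among the Kupffer cell genes, and Cd68 among the lipid-associated macrophage genes. The monocyte genes Ly6c2 and Ccr2 did not pass, and with the 16 compared libraries alone 1 of the 8 was higher. Cd8a, a coreceptor of cytotoxic T cells, had 0.874, 2.05 and 4.36 CPM in semaglutide mice and 0.0813, 0.626 and 1.2 CPM in reversal mice (1.72 ± 0.41 SE, adjusted p = 0.0021). Of 10 sinusoidal endothelium markers 3 were higher, with summed levels of 304 to 421 CPM in semaglutide mice and 218.5 to 349 CPM in reversal mice. Stab2, a scavenger receptor of that endothelium, had 51.9, 60.6 and 76.9 CPM in semaglutide mice and 24.0, 34.5 and 50.8 CPM in reversal mice, without overlap (0.79 ± 0.12 SE, adjusted p = 1.4e-06). Of 10 hepatocyte markers 3 were lower and 0 higher, and their summed level was 71370 to 126800 CPM in semaglutide mice and 84570 to 119300 CPM in reversal mice. Among markers of neighbouring tissues, Cela3b, Cpa1, Cpb1 and Pnlip of exocrine pancreas, Myh4 of skeletal muscle and Muc5b and Cdx2 of gallbladder and gut were at 0 in all 16 mice. The part of cell numbers in the changes of the immune lists was not tested.

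**Figure D3:**
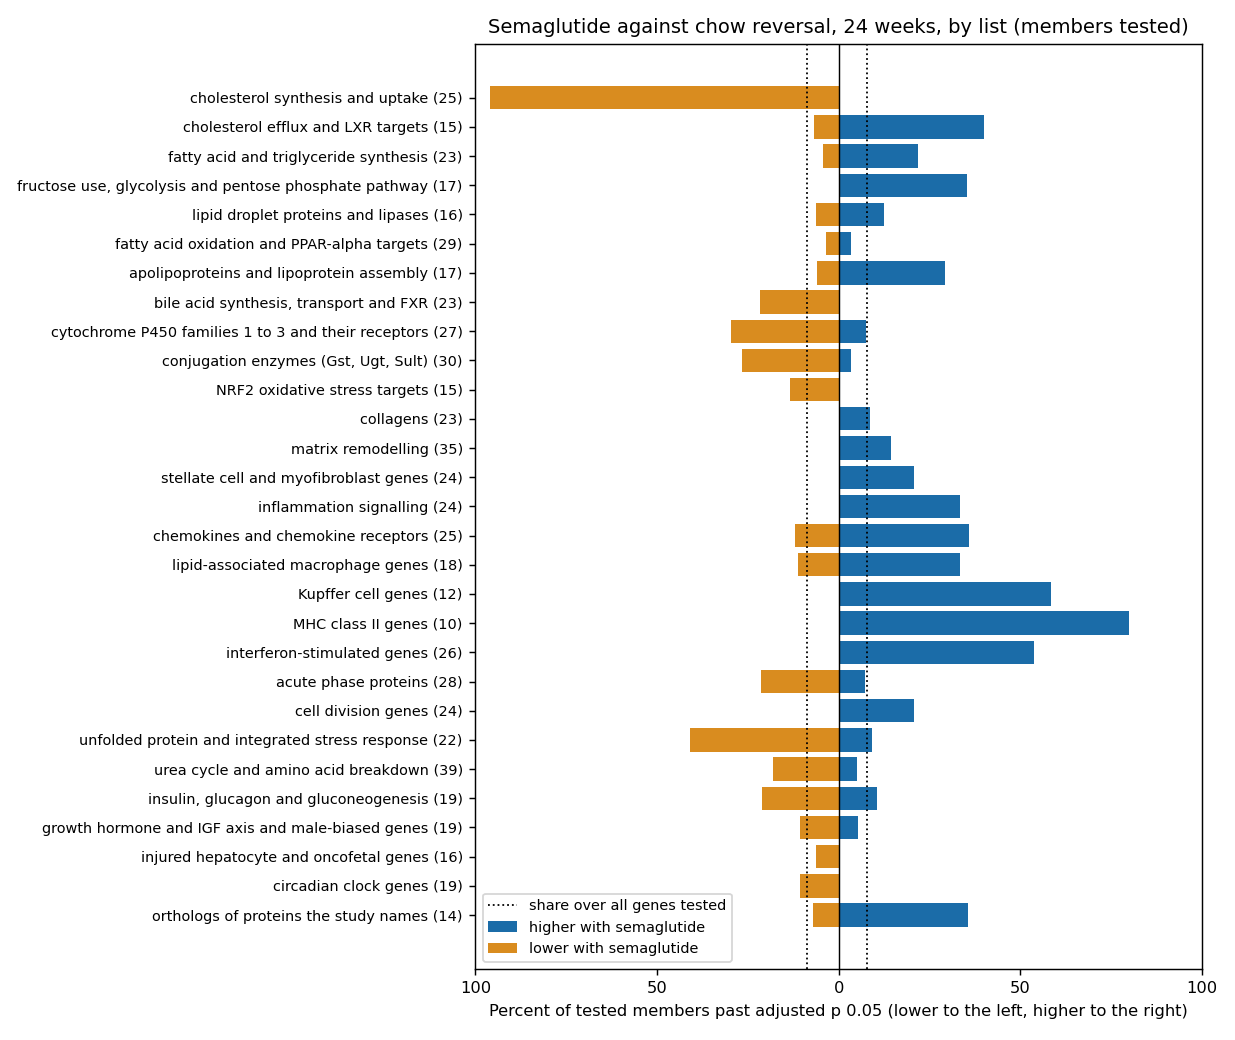
Percent of the tested members of 29 gene lists past an edgeR adjusted p of 0.05 in semaglutide over reversal livers, higher to the right and lower to the left, with the number tested in brackets and dotted lines at the share over all genes tested (7.77% higher, 8.72% lower). Cholesterol synthesis and uptake has 24 of 25 lower, and MHC class II genes 8 of 10 higher.

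The matrix and stellate cell genes that passed the test were all higher with semaglutide than after reversal, and most did not pass. Of 23 collagen genes 2 were higher and 0 lower (7.77% of all genes were higher and 8.72% lower). The count was 7 without reversal replicates 2 and 7, 7 with a term for sets of consecutive library numbers and 0 with only the 16 compared libraries in the fit, and it ran over 1 to 7 when 1 library at a time was left out. Col1a2, a chain of type I collagen, had 18.4, 36 and 54.7 CPM in semaglutide mice, against 12.0, 19.2 and 37.3 CPM in reversal mice, 60.2, 111.5 and 116 CPM in vehicle mice and 5.82, 6.61 and 17.98 CPM in chow mice. The log2 fold change was 0.79 ± 0.23 SE (adjusted p = 0.013), with 4 of 8 semaglutide mice above all reversal mice. Col1a1, the other chain, had 11.1, 37.8 and 58.4 CPM in semaglutide mice and 8.16, 12.7 and 34.9 CPM in reversal mice and just missed the threshold (0.86 ± 0.32 SE, adjusted p = 0.051), and it was 1.25 without reversal replicates 2 and 7 (adjusted p = 0.0052). Set against vehicle, Col1a1 was lower in both groups, with a log2 fold change of -1.54 in semaglutide livers (adjusted p = 0.00028) and -2.39 in reversal livers (adjusted p = 1.9e-08). Col16a1 rose by 0.55 ± 0.18 SE (adjusted p = 0.023). Col3a1 had 15.9, 54.9 and 74.8 CPM in semaglutide mice and 18.5, 29.1 and 66.5 CPM in reversal mice (0.68 ± 0.26 SE, adjusted p = 0.061).

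Of 35 matrix remodelling genes 5 were higher and 0 lower, and of 24 stellate cell and myofibroblast genes 5 were higher and 0 lower. Over all genes 7.77% were higher and 8.72% lower. Without reversal replicates 2 and 7 these lists had 8 and 9 higher, and with the 16 compared libraries alone 2 and 4. In semaglutide livers 15 of the 23 collagens, 24 of the 35 and 9 of the 24 genes were lower than in vehicle livers, and 1, 0 and 0 higher. In reversal livers 15, 28 and 16 were lower than in vehicle livers, and 2, 1 and 0 higher. Over all genes 13.6% and 19.1% were lower than in vehicle livers. Mmp12, the macrophage elastase, had 3.41, 14.8 and 30.5 CPM in semaglutide mice and 1.79, 3.03 and 21.4 CPM in reversal mice (1.24 ± 0.38 SE, adjusted p = 0.019). Rgs5, a pericyte gene, had 27.4, 31.7 and 60.2 CPM in semaglutide mice and 11.2, 18.9 and 31.6 CPM in reversal mice (1.0 ± 0.18 SE, adjusted p = 3.3e-05), and Colec11, a collectin made by stellate cells, rose by 0.77 ± 0.12 SE (adjusted p = 5e-06). Sparc, a matrix glycoprotein, rose by 0.55 ± 0.15 SE (adjusted p = 0.0084), and Tgfb1, the leading profibrotic cytokine, by 0.65 ± 0.16 SE (adjusted p = 0.0034). Acta2, alpha smooth muscle actin, the classic marker of myofibroblasts, had 2.41, 3.63 and 7.84 CPM in semaglutide mice and 1.22, 3.99 and 10.6 CPM in reversal mice (-0.21 ± 0.26 SE, adjusted p = 0.59). Timp1, an inhibitor of matrix proteases, had 0.874, 1.86 and 4.79 CPM in semaglutide mice and 0.221, 0.794 and 2.89 CPM in reversal mice (0.96 ± 0.39 SE, adjusted p = 0.08). Timp2 (0.12 ± 0.21 SE, adjusted p = 0.71) and the collagenase Mmp13 (0.18 ± 0.45 SE, adjusted p = 0.81) did not pass either.

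**Figure D4:**
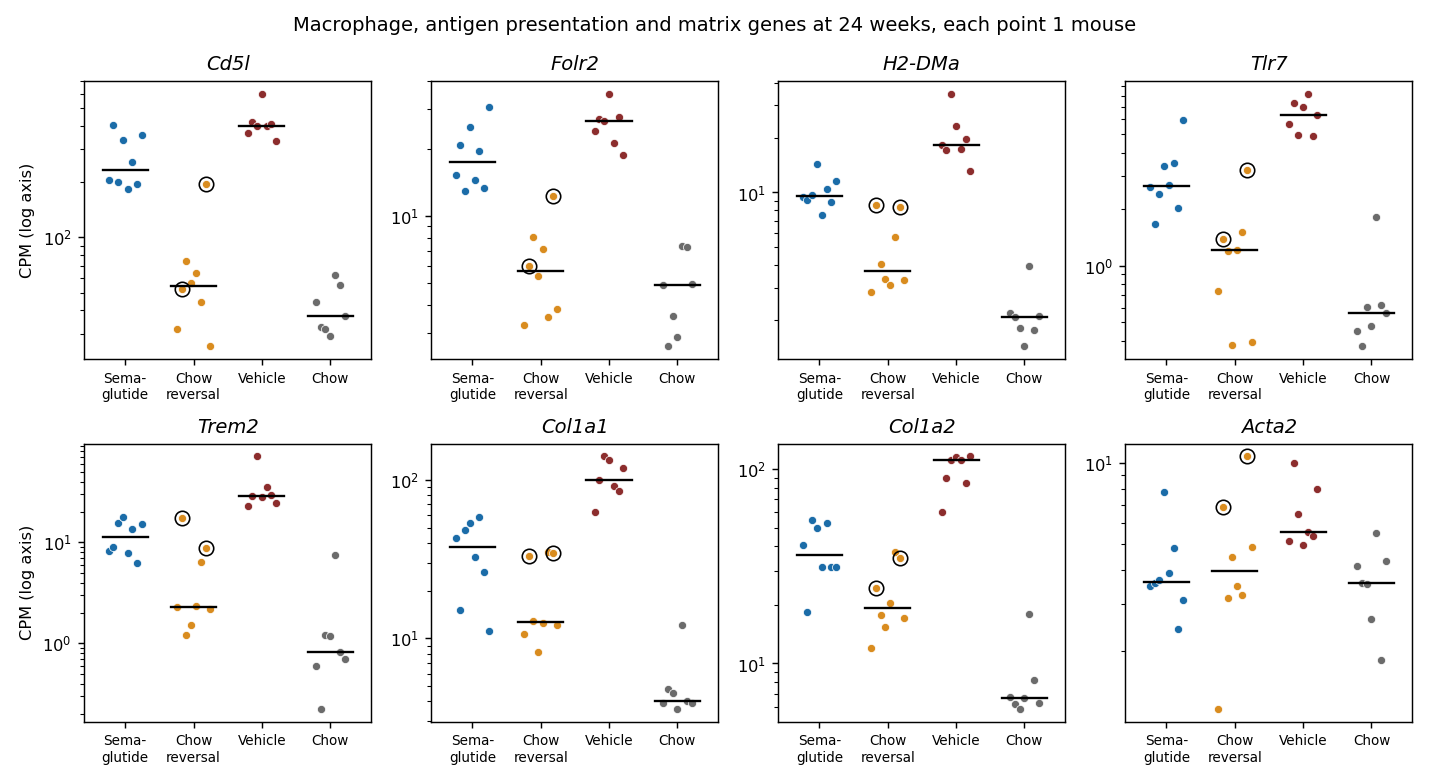
Levels of 8 macrophage, antigen presentation and matrix genes at 24 weeks in CPM on a log axis, each point 1 mouse, with semaglutide, reversal, vehicle and chow mice side by side, a black line at each group's median and black rings round reversal replicates 2 and 7. Cd5l and Folr2 are higher in semaglutide than in most reversal mice (Folr2 medians 17.4 and 5.70 CPM), and the ringed mice are the 2 highest reversal mice for H2-DMa, Trem2 and Acta2.

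Acute phase and stress genes included several that were lower. Of 28 acute phase genes 6 were lower (Apcs, Fga, Fgb, Fgg, Steap4 and Stat3) and 2 higher (Saa3 and Il1rn), and without reversal replicates 2 and 7 the counts were 4 lower and 10 higher. With the 16 compared libraries alone they were 0 lower and 1 higher. In the full fit 8.72% of all genes were lower and 7.77% higher. Fga, a fibrinogen chain, had 2047, 3383 and 6893 CPM in semaglutide mice and 3084, 3969 and 14050 CPM in reversal mice (-0.71 ± 0.19 SE, adjusted p = 0.0073). Stat3, which carries the signal of interleukin 6, had 47.3, 79.0 and 123 CPM in semaglutide mice and 68.2, 117 and 223 CPM in reversal mice (-0.71 ± 0.17 SE, adjusted p = 0.002). Saa3, the serum amyloid A of macrophages, had 10.7, 27.5 and 96.5 CPM in semaglutide mice and 6.75, 8.81 and 23.2 CPM in reversal mice (1.85 ± 0.37 SE, adjusted p = 0.00029). Saa1, made by hepatocytes, had 107, 164 and 2838 CPM in semaglutide mice, against 43.8, 62.1 and 3050 CPM in reversal mice. It did not pass (0.40 ± 0.62 SE, adjusted p = 0.68), and had a log2 fold change of 2.12 without reversal replicates 2 and 7 (adjusted p = 0.0096).

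In the unfolded protein and integrated stress response 9 of 22 genes were lower and 2 higher, against 2 lower and 0 higher with the 16 compared libraries alone. Without reversal replicates 2 and 7 the counts were 7 lower and 4 higher. Asns, asparagine synthetase, had 0.0654, 0.173 and 0.699 CPM in semaglutide mice, against 0.277, 0.833 and 8.60 CPM in reversal mice, 0.283, 0.452 and 0.880 CPM in vehicle mice and 1.86, 4.69 and 11.4 CPM in chow mice. It is a low-count gene, and 7 of 8 semaglutide mice lay below all reversal mice (-3.49 ± 0.58 SE, adjusted p = 9.9e-06). Reversal replicates 7 and 8 had 8.60 and 6.21 CPM, and the other reversal mice 0.277 to 1.2 CPM. The log2 fold change of Asns was -2.94 without reversal replicates 2 and 7 (adjusted p = 6.6e-05), and no fit left out both 7 and 8. Hspa5, the chaperone BiP of the endoplasmic reticulum, had 370, 559 and 1032 CPM in semaglutide mice and 572, 863 and 2062 CPM in reversal mice (-0.77 ± 0.22 SE, adjusted p = 0.012), and its cochaperone Dnajb9 fell by 0.94 (± 0.27 SE, adjusted p = 0.01). Xbp1, Sdf2l1, Hsp90b1, Pdia4, Creld2 and Ern1 were the others lower. Sesn2 and Vldlr were higher, the lipoprotein receptor Vldlr by 1.39 ± 0.31 SE (adjusted p = 0.0011). Of the 15 NRF2 targets 2 were lower, where 8.72% of all genes were lower. Srxn1, which repairs oxidized peroxiredoxins, rested on 1 mouse. It had 44.5, 55.5 and 73.7 CPM in semaglutide mice and 38.2, 47.2 and 562 CPM in reversal mice (-0.99 ± 0.33 SE, adjusted p = 0.029). Without reversal replicate 8 its log2 fold change was 0.28. Aox1, aldehyde oxidase, was the other, and fell by 0.65 (± 0.17 SE, adjusted p = 0.0051). Tnfrsf12a, the TWEAK receptor of injured hepatocytes, had its highest value of 100.4 CPM in the same mouse (-1.17 ± 0.37 SE, adjusted p = 0.021, and 0.18 without it). It was the only one past the threshold of 16 genes of injured hepatocytes, and Anxa2 of that list did not pass (0.51 ± 0.23 SE, adjusted p = 0.11). Without reversal replicates 2 and 7 the list had 5 genes higher and 1 lower, and Anxa2 was at 1.00 (adjusted p = 0.00076). In the mice of 16 weeks 5 of the list were higher and 0 lower.

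Of 39 genes of the urea cycle and amino acid breakdown 7 were lower and 2 higher (over all genes 8.72% and 7.77%). With the 16 compared libraries alone 2 were lower and 1 higher. Bhmt, which remethylates homocysteine with betaine, had 1027, 1723 and 2484 CPM in semaglutide mice, against 2550, 4320 and 5073 CPM in reversal mice, 1354, 1857 and 2462 CPM in vehicle mice and 3143, 4570 and 6472 CPM in chow mice. Semaglutide and reversal mice did not overlap (-1.22 ± 0.18 SE, adjusted p = 1.3e-06). Cth, which makes cysteine from cystathionine, had 115, 191.5 and 272 CPM in semaglutide mice and 262, 429 and 645.5 CPM in reversal mice, with 7 of 8 semaglutide mice below (-1.21 ± 0.19 SE, adjusted p = 3.4e-06). Hpd, a tyrosine-degrading enzyme, rose by 0.58 ± 0.16 SE (adjusted p = 0.0075). Among 19 genes of insulin, glucagon and gluconeogenesis 4 were lower and 2 higher (over all genes 8.72% and 7.77%). In the fit of the 16 compared libraries 0 were lower and 1 higher. Pck1, which commits carbon to gluconeogenesis, had a median of 1060 CPM in semaglutide mice and 1947 CPM in reversal mice (-0.79 ± 0.25 SE, adjusted p = 0.021). Sik1, a kinase induced by cyclic AMP, had a highest value of 65.2 CPM in reversal replicate 7 (-1.0 ± 0.27 SE, adjusted p = 0.0075, and -0.27 without reversal replicates 2 and 7, adjusted p = 0.36).

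Of 24 cell division genes 5 were higher and 0 lower, with 11 higher without reversal replicates 2 and 7 and 0 with only the 16 compared libraries in the fit. Relative to vehicle, 19 were lower and 0 higher both with semaglutide and after reversal (13.6% and 19.1% of all genes were lower). Mki67, which marks cycling cells, had 3.18, 4.504 and 7.19 CPM in semaglutide mice and 1.14, 2.12 and 7.24 CPM in reversal mice (0.83 ± 0.27 SE, adjusted p = 0.026), and Mcm6, a subunit of the replicative helicase, rose by 0.81 ± 0.22 SE (adjusted p = 0.0073). Of 19 growth hormone, IGF and male-biased genes 1 was higher and 2 lower, where 7.77% of all genes were higher and 8.72% lower. Cux2, a female-biased transcription factor of mouse liver, had 0.3496, 0.893 and 8.30 CPM in semaglutide mice and 0.150, 0.335 and 0.865 CPM in reversal mice (2.58 ± 0.51 SE, adjusted p = 0.00024). C8a, a complement gene, fell by 0.76 (± 0.19 SE, adjusted p = 0.003), and Igf1 did not pass (-0.14 ± 0.12 SE, adjusted p = 0.44). Of 19 circadian clock genes 2 were lower and 0 higher, where 8.72% of all genes were lower. Clock had a log2 fold change of -0.69 ± 0.18 SE (adjusted p = 0.0045) and Arntl of -1.38 ± 0.45 SE (adjusted p = 0.028). Arntl had its highest value of 18.5 CPM in reversal replicate 7 and passed in 14 of the 16 fits that left out 1 library. Without reversal replicates 2 and 7 it was at -0.69 (adjusted p = 0.24). The hour of sampling of each mouse is not given in the sources used here, and its part was not tested. A further list held mouse orthologs of some, not all, of the proteins that the study names. Of its 14 tested members 5 were higher (Gusb, Akr1b10, Acy1, Colec11 and Lect2) and 1 lower (Rpn1). Akr1b10, an aldo-keto reductase, rose by 0.93 ± 0.21 SE against reversal (adjusted p = 0.0016). Against vehicle its log2 fold change was -0.53 in semaglutide livers (edgeR adjusted p = 0.052) and -1.46 in reversal livers (adjusted p = 8.9e-08). The study measured AKR1B10 as a protein in patient serum and compared semaglutide with placebo.

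Several of the genes with the largest stable differences are not on these lists. Among rises, Cyp2a4, a female-predominant steroid hydroxylase of cytochrome P450 family 2 that the cytochrome list does not hold, had 3.23, 62.3 and 131 CPM in semaglutide mice, against 0.915, 1.88 and 19.8 CPM in reversal mice and 56.8, 642.5 and 1765 CPM in vehicle mice (4.10 ± 0.82 SE, adjusted p = 0.00029). Hamp2, a paralogue of the iron hormone hepcidin whose reads can be shared with Hamp, had 4.02, 85.2 and 155 CPM in semaglutide mice and 6.42, 10.3 and 20.8 CPM in reversal mice (2.85 ± 0.48 SE, adjusted p = 1.1e-05), and 7 semaglutide mice lay above all reversal mice and 1, replicate 2, below. Ephb2, a receptor of ephrins, had 2.19, 5.30 and 11.6 CPM in semaglutide mice, against 0.150, 0.827 and 1.51 CPM in reversal mice and 19.4, 26.2 and 32.9 CPM in vehicle mice (2.88 ± 0.42 SE, adjusted p = 4.4e-07). Dio3os, a noncoding RNA beside the thyroid hormone deiodinase gene Dio3, had 2.41, 4.62 and 9.16 CPM in semaglutide mice, against 0.157, 0.544 and 1.11 CPM in reversal mice and 0.377, 0.956 and 2.52 CPM in vehicle mice (2.98 ± 0.41 SE, adjusted p = 1e-07). Ear2, an eosinophil-associated ribonuclease with near copies, had 5.57, 6.97 and 15 CPM in semaglutide mice and 0.753, 1.47 and 3.48 CPM in reversal mice (2.28 ± 0.30 SE, adjusted p = 4.5e-08). Ephb2, Dio3os and Ear2 had no overlap between semaglutide and reversal mice. Hao2, a hydroxyacid oxidase, rose by 2.38 ± 0.54 SE (adjusted p = 0.0014), and AC154912.1, a transcript annotated as antisense, by 2.30 ± 0.30 SE (adjusted p = 4e-08).

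Among falls, Serpina1e, a member of the alpha-1-antitrypsin cluster whose near copies can share reads, had 30.4, 94.0 and 4129 CPM in semaglutide mice, against 1974, 4474 and 8801 CPM in reversal mice, 17.9, 55.9 and 120 CPM in vehicle mice and 4044, 7234 and 11240 CPM in chow mice. All semaglutide mice but replicate 2 lay at or below 169 CPM, and the log2 fold change was -2.99 ± 0.71 SE (adjusted p = 0.0023) with it and -5.70 without it. Raet1e, a ligand of the activating NK cell receptor NKG2D, had 0.733, 1.16 and 2.75 CPM in semaglutide mice and 7.72, 10.8 and 15.8 CPM in reversal mice, without overlap (-2.97 ± 0.32 SE, adjusted p = 5.4e-11). Srgap3, a regulator of the cytoskeleton, had 0.244, 0.542 and 1.14 CPM in semaglutide mice and 0.412, 3.08 and 7.82 CPM in reversal mice (-2.68 ± 0.37 SE, adjusted p = 1.5e-07). Rian, an imprinted noncoding RNA, was near the detection limit, with 0, 0.0888 and 0.362 CPM in semaglutide mice and 0.118, 0.887 and 1.91 CPM in reversal mice (-2.92 ± 0.79 SE, adjusted p = 0.0074).

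The same comparison in other mice after 8 and 16 weeks gave the sterol pattern each time. At 16 weeks 6.24% of all genes tested were higher and 9.8% changed in either direction, and at 8 weeks these shares were 3.52% and 6.16%. Of the 25 genes of cholesterol synthesis and uptake, 25 were lower at 8 weeks (median -2.16, 2.64% of all genes lower) and 23 at 16 weeks (median -1.70, 3.56% of all genes lower). Sqle had a log2 fold change of -6.52 at 8 weeks (edgeR adjusted p = 1.2e-20), -5.97 at 16 weeks (adjusted p = 2e-20) and -6.43 at 24 weeks, and Abcg5 of 2.19 (adjusted p = 7.8e-15), 1.99 (adjusted p = 2.6e-14) and 2.16. Of the 1158 genes higher at 24 weeks, 548 were also called higher at 16 weeks, which is 47.3% of the genes at 24 weeks and 58.9% of those at 16 weeks. Of the 1299 genes lower at 24 weeks, 328 were also called lower at 16 weeks, or 25.3% and 61.9%. At 8 weeks 263 of the higher genes (22.7%, and 50.1% of those at 8 weeks) and 163 of the lower genes (12.5% and 41.5%) were called in the same direction.

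The change of the effect with time was tested in the same fit as the effect at 24 weeks minus that at 8 weeks. With edgeR 1 gene was higher (0.00671%) and 2 were lower (0.0134%), together 0.0201%, while 3993 had an unadjusted p under 0.05 and DESeq2 called 92 higher and 225 lower. The count rested on single libraries, with 1634 genes past the threshold without reversal replicate 2 and 0 without reversal replicate 8. Hamp2 stood at -0.30 on the log2 scale after 8 weeks (adjusted p = 0.73), at 1.66 after 16 weeks (adjusted p = 0.0098) and at 2.85 after 24 weeks, and the difference between 24 and 8 weeks was 3.15 (adjusted p = 0.048). Zfp719, a zinc finger gene, had 1.57, 2.55 and 3.42 CPM in semaglutide mice and 2.56, 3.45 and 5.82 CPM in reversal mice at 24 weeks (-0.58 ± 0.17 SE, adjusted p = 0.013), a value of 0.71 at 8 weeks and a difference of -1.29 (adjusted p = 0.035). Ddx52, an RNA helicase, had 12.3, 14.8 and 16.3 CPM in semaglutide mice and 16.0, 18.1 and 22.9 CPM in reversal mice at 24 weeks (-0.37 ± 0.07 SE, adjusted p = 0.00025), against 0.16 at 8 weeks, a difference of -0.53 (adjusted p = 0.037). The unfolded protein list had 1 gene higher and 1 lower at 8 weeks, 0 in either direction at 16 weeks and 2 higher and 9 lower at 24 weeks, and 0 of its 22 genes passed the test of the difference. Asns had a log2 fold change of -0.23 at 8 weeks (adjusted p = 0.85), -0.77 at 16 weeks (adjusted p = 0.46) and -3.49 at 24 weeks, and its difference between 24 and 8 weeks did not pass (-3.25, adjusted p = 0.088). Its values in reversal replicates 7 and 8 at 24 weeks lay far above those of the other reversal mice.

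**Figure D5:**
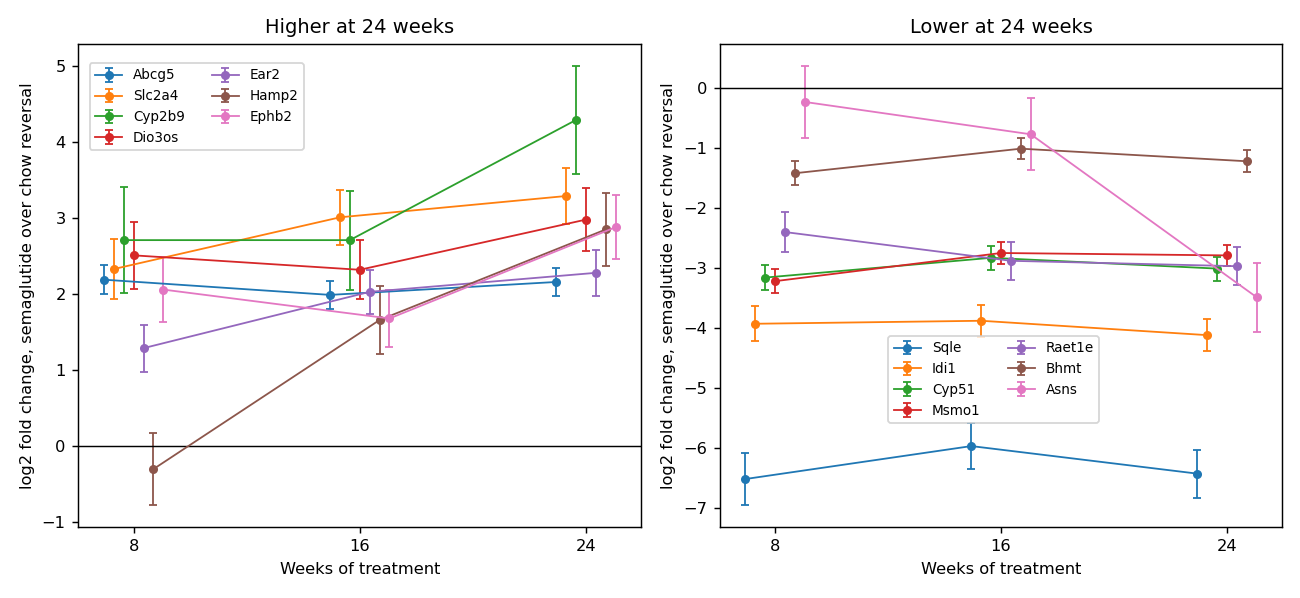
Log2 fold change of semaglutide over reversal after 8, 16 and 24 weeks of treatment for 7 genes higher (left) and 7 genes lower (right) at 24 weeks, with bars of 1 SE and points of a week set side by side. The mice of the 3 times are different mice. Sqle stays between -5.97 and -6.52, and Hamp2 lies at -0.30 at 8 weeks and 2.85 at 24 weeks.

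By position, Sqle is at chr15:59315077-59331192, Idi1 at chr13:8885501-8892451, Abcg5 at chr17:84658234-84683011 and its neighbour Abcg8 at chr17:84676302-84700333 in GRCm38, and these last 2 gene spans overlap. Reads from overlapping genes cannot always be assigned, since the strand setting of the counting is not given in the sources used here. The same limit holds for the noncoding genes Dio3os and Rian and for AC154912.1, where reads of a gene on the opposite strand could be counted.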

How the data were processed

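Liver RNA was taken from the left lateral lobe, and libraries were made with the NEBNext Ultra II Directional kit and sequenced on a NextSeq 500. The authors deposited a table of estimated counts for 55487 genes in 77 libraries, 1 per mouse, aligned to mm10 (GRCm38) with STAR 2.7.3a and quantified with Salmon 1.2.0, with FastQC 0.11.9 and Picard named in the submitters' processing notes. The strand setting is not given in the sources used here. Of the deposited estimated counts 7.55% were not whole, and they were rounded.

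Groups followed the treatment labels. All 10 groups were fitted together with edgeR 4.0.16 in R 4.3.3 (TMM factors, filterByExpr, quasi-likelihood test, Benjamini-Hochberg adjustment over 14904 genes, threshold 0.05, 67 residual degrees of freedom). DESeq2 1.42.0 was an alternative, as were other scalings, no filter, other sets of libraries and leaving out each library. On simulated counts for the 24-week comparison (14690 genes), edgeR called 25 of 49 genes changed by 1.5-fold, 40 of 50 changed by 2-fold, 48 of 49 changed by 4-fold, 48 of 50 changed by 8-fold and 18 of 14492 unchanged genes. The simulated counts held few changed genes and no outlying libraries, so these rates do not cover the outlying mice seen here. P-values of the main fit set the difference between 2 groups against the spread between mice, estimated over all 10 groups. Total counts of the libraries were 8883190 to 37631125 over the series.

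The members and gene lists (29 pathway lists with 641 genes, 625 tested, and 14 marker lists) were chosen with earlier results of these data known. Named genes were the 2 members of each pathway list with the smallest p, the 10 largest rises and 10 largest falls past the threshold in every fit that left out 1 of the 16 libraries (average log2 CPM over 0, predicted genes left out), Timp1, Timp2, Mmp13, Col1a1 and Acta2, and the genes past the threshold for the difference between 24 and 8 weeks. Further genes in the text were picked with their values in view. A few list members enter the counts but are not reported here by name. Promoter sequences are from RefSeq (GRCm38.p6).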

Additional observations from a re-analysis of the deposited data

Results flagged for a closer look

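In 36 of 236 groups of 8 values, for the named genes and the list scores, the highest or lowest mouse lay far from the other 7 by Dixon's test, where chance gives about 1 in 20. The test was run on log2 CPM and, for lists, on the mean score of the list's genes, and the levels below are in CPM.

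Reversal replicate 7 accounted for many of these. It was the lowest reversal mouse for Cidea (0.412 CPM, others 7.46 to 38.6), Acot2 (0.707 CPM), Baat (170.5 CPM) and Ugt2b1 (56.3 CPM, others 270.7 to 451.8). It was the highest for Cxcl14 (132 CPM, others 1.81 to 4.68), Sik1 (65.2 CPM), C8a (990.8 CPM) and Mcm6 (8.30 CPM, others 2.60 to 4.34). Its list scores were lowest for fructose use and glycolysis (-0.86), lipid droplet proteins (-1.30), fatty acid oxidation (-1.62), bile acid genes (-0.77), cytochromes (-1.48), conjugation enzymes (-0.97) and adipocyte markers (-3.70). They were highest for inflammation signalling (0.49) and for chemokines and their receptors (0.74). The adipocyte score rests on 2 of 6 markers, Cfd and Car3, since Adipoq, Lep, Retn and Plin1 were not tested.

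Reversal replicate 8 was the highest reversal mouse for Srxn1 (561.8 CPM, others 38.2 to 54.5), Cyp51 (434.9 CPM) and Idi1 (914.4 CPM), and its score of B and plasma cell markers was the lowest (-1.24). Reversal replicate 2 was the highest for Bst2 (206.8 CPM).

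Semaglutide replicate 2 was the highest semaglutide mouse for Serpina1e (4129 CPM, others 30.4 to 168.5), C8a (686.3 CPM) and Asns (0.699 CPM), and for the scores of lipid droplet proteins (0.35) and acute phase proteins (1.65). It was the lowest for Cyp2a4 (3.23 CPM, others 28.4 to 131) and Hamp2 (4.02 CPM, others 50.5 to 154.7). Semaglutide replicate 3 was the highest for Sqle (4.95 CPM, others 0.458 to 1.31), Cyp51 (55.4 CPM) and Acss2 (282.5 CPM). Semaglutide replicate 8 was the lowest for Gpi1 (149.3 CPM) and Tm6sf2 (25.5 CPM), replicate 4 the highest for Colec11 (77.4 CPM) and replicate 5 the highest for Clock (25.3 CPM).

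The effect of semaglutide over reversal differed between 24 and 8 weeks, by edgeR's test of the difference, for Hamp2 (3.15, adjusted p = 0.048), Zfp719 (-1.29, adjusted p = 0.035) and Ddx52 (-0.53, adjusted p = 0.037).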

How the results depend on the processing

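The number of genes higher (1158) was 307 when the fit held the 16 compared libraries alone and 1987 without reversal replicates 2 and 7. The number lower (1299) was 208 in that smaller fit, 506 with scaling to library totals and 2145 without reversal replicates 2 and 7. Leaving out 1 library gave 863 to 1578 genes higher and 816 to 1850 lower. For the difference between 24 and 8 weeks 3 genes passed, against 317 with DESeq2, 0 with scaling to library totals, 2316 without reversal replicates 2 and 7, 580 without these and semaglutide replicate 2, and 5 without the libraries numbered in a second series. Leaving out 1 library gave 0 to 1634. The fits without replicates 2 and 7 were chosen after seeing the data, and the cause of these shifts was not tested.

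Of the 78 named genes 72 passed, 63 of them in all 16 fits that left out 1 library, and 26 lost the threshold in the fit of the 16 libraries alone. Direction changed for 6. Srxn1 was at 0.28 and Tnfrsf12a at 0.18 without reversal replicate 8. Cxcl14 was at 0.22 without reversal replicate 7, 0.42 without reversal replicates 2 and 7, and 0.33 without these and semaglutide replicate 2. Acta2 was at 0.08, 0.28 and 0.30 under the same settings. Timp2 was at -0.03 without semaglutide replicate 3, and Mmp13 at -0.07 without semaglutide replicate 8 and -0.06 without the second-series libraries. With a term for sets of consecutive library numbers 1206 genes were higher and 1262 lower, and Acot2, Srxn1, Cxcl14, Sik1, Tnfrsf12a and Arntl, 6 of the named genes, lost the threshold while 2, Col1a1 and Anxa2, passed it. These sets are no replicate numbers of the labels. No paired analysis was possible because the labels give each animal a number of its own and no number is shared between the groups. Over the fits that left out 1 library the values ran over -1.12 to 0.28 for Srxn1, -2.78 to 0.22 for Cxcl14, -1.34 to 0.18 for Tnfrsf12a, -0.03 to 0.25 for Timp2, -0.07 to 0.35 for Mmp13 and -0.42 to 0.08 for Acta2. At this depth genes such as Asns and Rian rest on few counts.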

Other observations

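Fabp2, an intestinal fatty acid binding protein on the list of gallbladder and gut markers, had 99.9, 147.8 and 335.9 CPM in semaglutide mice and 13.02, 59.75 and 94.5 CPM in reversal mice (lowest, median, highest). Every semaglutide mouse lay above every reversal mouse, and the log2 fold change was 1.52 ± 0.24 SE (edgeR adjusted p = 3.6e-06). Of the 7 members of that list 3 were tested, with Fabp2 higher, Lgr5 lower and a median log2 fold change of -0.18. Muc5b and Cdx2 of the same list were at 0 in all 16 mice. The summed level of B and plasma cell markers reached 596.8 CPM in 1 semaglutide mouse, against at most 97.4 CPM in reversal mice. The medians were 80.97 CPM in semaglutide and 87.74 CPM in reversal mice. Of the 8 markers 2, Ighm and Igkc, were higher and 0 lower.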
